A study of Rattus norvegicus with 6 samples.

Results

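Myc, the Gadd45 genes and p53 target genes are 9 genes at the meeting point of growth control and the DNA damage response: Myc, Max, Mxd1, Gadd45a, Gadd45b, Gadd45g, Cdkn1a, Mdm2 and Ccng1. They were found as the non-control probes whose gene name in the array files is 1 of these symbols, which gave 12 of 30367 non-control probes, and they stand among 17536 genes tested. The 9 names were selected on the difference between AACO and control on these same 6 arrays, so their own differences are given as a description, without a test. The samples are 3 hearts of animals given AACO and 3 hearts of control animals, labelled as whole heart of Rattus norvegicus. AACO is a formula of Chinese medicine that the labels do not spell out further. It was given once a day at 0.386 µg/g for 8 weeks, and control animals received the same amount of double-distilled water. Hearts were taken 24 h after dosing ended. By the series text, both groups consisted of TAC animals. TAC commonly stands for transverse aortic constriction, a narrowing of the aorta that overloads the left ventricle. It calls the animals mice, whereas the labels and the probe positions, which are on the rat build rn4, are those of rat. No animals without TAC are among these samples. The series text speaks of different donors for each experiment, but no label ties an array to an animal, so any spread given here is the spread between samples.

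MYC is a transcription factor that pairs with MAX and binds the E-box of genes for ribosome making, nucleotide synthesis and cell growth. MXD1 competes for the same partner and represses such genes. In the rodent heart, Myc is low in adult life and is known to be induced early after pressure overload. The GADD45 proteins are small stress-induced proteins that bind the kinase MAP3K4 upstream of p38 and JNK, and also PCNA and p21. The transcription factor p53 switches on Cdkn1a, which encodes the cell cycle inhibitor p21, as well as Gadd45a, Mdm2 and Ccng1. MDM2 in turn marks p53 for degradation, which closes a feedback loop.

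Each value is the log2 of the Agilent processed signal, averaged over the spots of a probe, minus the 75th percentile of the array, so 0 marks the 75th percentile of the non-control spots of that array. Signals of different probes are not on a common scale, and each comparison is of 1 probe between arrays. The AACO arrays were brighter, with a median spot signal of 212 to 261 and 70.9% to 72.4% of spots well above background, against 143 to 204 and 66.0% to 68.7% on the control arrays. All AACO arrays lay on 1 slide and were scanned on 1 day, and all control arrays lay on another slide and were scanned on another day, so slide and group cannot be told apart for any result here. As a check of the tissue label, 8 of 8 cardiomyocyte markers were well above background on all arrays. The summed levels of some other marker lists differed between the groups. Of 12 macrophage markers 9 fell, and their summed linear level, on which the 75th percentile is 1, was 14.9 to 16.1 on AACO arrays and 24.9 to 37.2 on control arrays, with 11 of 12 well above background on all arrays. The 3 neutrophil markers measured of 6 summed to 0.318 to 0.864 on AACO arrays and 1.08 to 1.60 on control arrays, and 1 of them fell. The 4 Schwann cell markers summed to 4.39, 4.93 and 1.09 on AACO arrays and 0.552, 1.16 and 0.261 on control arrays, a ratio of means of 5.28. All 4 had higher means with AACO at an unadjusted p under 0.05, and Sox10 rose (1.52 ± 0.35 on the log2 scale, limma adjusted p = 0.0451). The 6 smooth muscle and pericyte markers summed to 7.32 to 10.3 on AACO arrays and 6.25 to 7.02 on control arrays. Of these 6, 0 had a limma adjusted p under 0.05, and 5 had higher means with AACO while 1, Rgs5, was lower (-0.34 ± 0.14, SE). The 6 endothelial markers summed to 20 to 22 on AACO arrays and 23.1 to 25.1 on control arrays. Of these 6, 0 had a limma adjusted p under 0.05, and 5 had lower means with AACO while 1, Vwf, was higher (0.13 ± 0.24, SE). The 5 atrial markers overlapped in sum, at 158 to 251 on AACO arrays and 152 to 236 on control arrays. By itself, each of Nppa and Myl4 overlapped too, while Myl7, Sln and Pam did not, and they did not share a direction. Nppa gave 2.80, 5.49 and 5.86 in AACO hearts and 4.95, 5.25 and 6.99 in control hearts (limma adjusted p = 0.489). The log2 fold change of Myl4 was -0.002 ± 0.11 (SE). Myl7, the atrial myosin light chain, gave 4.83, 6.26 and -1.06 in AACO hearts and -2.31, -2.91 and -1.51 in control hearts (limma adjusted p = 0.0954). AACO replicates 1 and 2 thus stood far above AACO replicate 3 and every control heart on Myl7, and they were also the 2 arrays with the highest Schwann cell sums. Sln, another atrial marker, gave 1.39, 3.85 and -0.41 in AACO hearts and -1.71, -0.42 and -0.59 in control hearts (adjusted p = 0.159), and Pam fell (-0.51 ± 0.11, adjusted p = 0.0404). The red cell sums overlapped, but they rest on the 2 genes measured of 5, Hbb and Alas2. Hbb had 0.05 ± 0.20 (SE) from the probe in the sum and -1.30 from its other probe. Alas2, a gene of haem synthesis, fell (-1.33 ± 0.24, adjusted p = 0.0243). The sums of the fibroblast, lymphocyte, adipocyte and dividing cell lists overlapped too. The part of these cell types in the results below was not tested, and in such bulk samples fewer cells of a type and less RNA per cell cannot be told apart.

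A gene is said to pass the threshold where its adjusted p from limma, fitted over all genes, was under 0.05. Of the 9 members, 3 passed with lower values in AACO hearts (Myc, Gadd45b and Mxd1) and 0 passed with higher values. Over all genes tested, 4.94% passed as lower, 6.32% passed as higher and 11.3% passed in either direction. Since the members were selected on this contrast, the threshold is no test of them and nothing is read from their count. The count was 0 without AACO replicate 1 or without AACO replicate 2, and 1 (Myc) without control replicate 3 or without scaling. It was 2 (Myc and Gadd45b) without control replicate 1, without control replicate 2 or with no filter on dim probes. Myc, Gadd45b and Mxd1 were also those of the 9 whose groups did not overlap, a state found in 37.4% of all genes. The median log2 difference of the 9 was -0.30, against 0.04 for all genes, and the median size of the difference was 0.30 against 0.24.

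**Figure D1:**
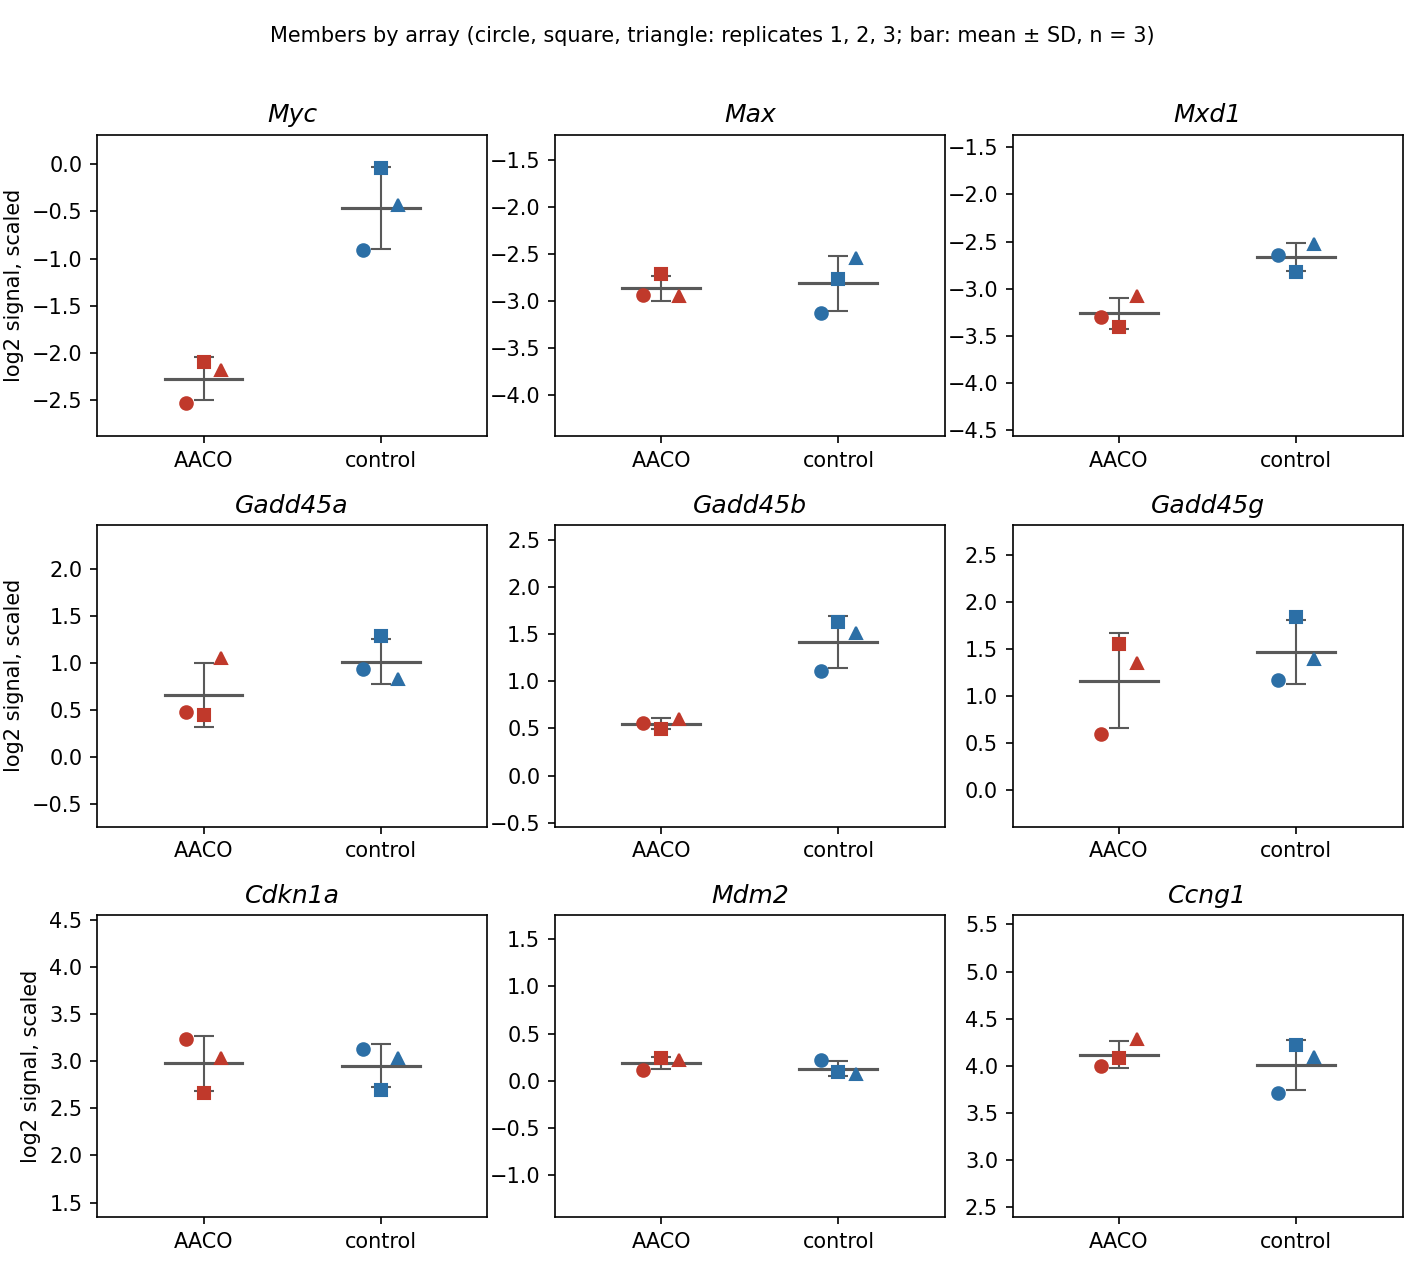
Scaled log2 signal (vertical axis, log2 units over the 75th percentile of the array) of the 9 genes, each by the probe with the highest mean signal, in AACO and control hearts. Every panel spans the same number of log2 units. Points are arrays and bars are the mean ± SD with n = 3 per group. The groups are apart for Myc, Mxd1 and Gadd45b and overlap for the other 6.

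Myc was the member with the largest difference. It is measured by 1 probe, printed on 10 spots of each array, at chr7:98957687-98957746 on the plus strand of rn4 and base 1960 of its transcript. The first 30 of its 60 bases are shown because the largest difference among the members rests on this oligo alone.
Myc: aacttggacttcaaaaaatgcatgctcaaa

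The scaled log2 signal of Myc was -2.54, -2.10 and -2.18 in AACO hearts, against -0.91, -0.04 and -0.43 in control hearts. Every AACO heart lay below every control heart, with 1.19 log2 units between the highest AACO and the lowest control value. The means were -2.27 ± 0.23 in AACO hearts and -0.46 ± 0.44 in control hearts (SD, n = 3 each), a log2 fold change of -1.81 ± 0.24 (SE), or 3.51-fold lower with AACO. Before scaling, the processed signal was 292, 503 and 472 on AACO arrays and 937, 1177 and 993 on control arrays, so the groups were apart on the unscaled values too. The repeat spots show the technical spread within an array. Their SD was between 0.024 and 0.11 log2 units on each array, after 2 of the 10 spots of AACO replicate 1 were set aside by the scanner's outlier marks. The brighter of these 2 read 788, against 276 to 313 for the 8 spots kept. Ranked by the size of its difference, Myc stood at 172 of 17536 genes, within the top 0.981%. With AACO replicate 1 left out the log2 fold change was -1.68 and with AACO replicate 2 left out it was -1.90. Over the whole array, the genes that passed numbered 179 higher and 227 lower without AACO replicate 1, and 108 higher and 149 lower without AACO replicate 2.

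Max, the obligate partner of MYC, overlapped between the groups. Its probe at chr6:99530023-99530082 on the minus strand of rn4 gave -2.93, -2.71 and -2.94 in AACO hearts and -3.12, -2.76 and -2.55 in control hearts. The 3 AACO values all lay inside the range of the control values. The log2 fold change was -0.05 ± 0.17 (SE), and it turned to 0.43 when the arrays were not scaled.

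Mxd1, whose protein pairs with MAX to repress MYC targets, was lower with AACO by a smaller amount than Myc. Its brighter probe, at chr4:120801994-120802053 on the minus strand of rn4, gave -3.30, -3.40 and -3.08 in AACO hearts, against -2.64, -2.82 and -2.53 in control hearts. The groups were apart by 0.26 log2 units, and the log2 fold change was -0.60 ± 0.13 (SE), or 1.51-fold lower. On the unscaled signal the groups overlapped, at 172 to 254 on AACO arrays and 171 to 282 on control arrays, and the difference shrank to -0.11. The second probe of Mxd1, at base 953 of the transcript against base 2511 for the first, was not well above background on any array and gives no value for comparison. Myc and Mxd1, whose products compete for MAX, both had lower values in AACO hearts, while Max did not separate the groups.

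The 3 Gadd45 genes differed in how far the groups were apart, and the groups did not overlap for Gadd45b alone. Whether the 3 genes differed from each other in their response was not tested. Gadd45b, the member known for its induction by cytokines and inflammatory signals, is measured at chr7:10289049-10289076 on the minus strand of rn4, an interval that the file gives with 28 bases for a 60-base probe. Its scaled log2 signal was 0.56, 0.49 and 0.60 in AACO hearts, against 1.11, 1.63 and 1.52 in control hearts. The AACO hearts lay close together, with an SD of 0.06 around a mean of 0.55, against 0.27 around 1.42 in control hearts (n = 3 each). The log2 fold change was -0.87 ± 0.15 (SE), or 1.82-fold lower. The unscaled signal kept the groups apart, at 2499, 3034 and 3245 on AACO arrays and 3789, 3732 and 3837 on control arrays, although the unscaled difference was only -0.38.

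Gadd45a, the p53-induced member of the family, gave 0.48, 0.44 and 1.05 in AACO hearts and 0.94, 1.28 and 0.83 in control hearts, from a probe at chr4:96650454-96650513 on the minus strand. AACO replicate 3 lay within the control range and the other two below it. The log2 fold change was -0.36 ± 0.21 (SE). Gadd45g, at chr17:19231421-19231480 on the minus strand, gave 0.60, 1.55 and 1.35 in AACO hearts and 1.17, 1.84 and 1.40 in control hearts. Only AACO replicate 1 lay below the control range, and the log2 fold change was -0.30 ± 0.29 (SE). Both turned positive without scaling, at 0.13 for Gadd45a and 0.18 for Gadd45g.

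The sequence before the transcription start is shown for the Gadd45 family and for Mxd1, since the groups were apart for 1 of the 3 Gadd45 genes and for Mxd1. The 250 bases are from RefSeq on build GRCr8, which is not the build of the probe positions, and all lie on the minus strand. The Mxd1 bases are chr4:120675130-120675379, and those of Gadd45a, Gadd45b and Gadd45g are chr4:97486800-97487049, chr7:9430719-9430968 and chr17:13530352-13530601. Capitals mark the E-box CACGTG, the CCAAT box CCAAT on either strand, the TATA box TATAAA, and in Gadd45a a match to the p53 half-site.
Mxd1: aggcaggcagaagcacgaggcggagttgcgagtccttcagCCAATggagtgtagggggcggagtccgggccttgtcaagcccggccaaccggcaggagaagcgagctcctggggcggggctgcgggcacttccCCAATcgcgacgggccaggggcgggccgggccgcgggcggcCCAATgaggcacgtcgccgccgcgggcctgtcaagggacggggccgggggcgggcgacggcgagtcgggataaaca
Gadd45a: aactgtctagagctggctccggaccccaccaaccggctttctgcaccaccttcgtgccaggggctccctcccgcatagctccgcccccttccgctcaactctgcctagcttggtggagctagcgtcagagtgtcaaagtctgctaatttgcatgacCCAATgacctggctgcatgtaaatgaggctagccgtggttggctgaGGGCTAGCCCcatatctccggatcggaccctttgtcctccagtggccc
Gadd45b: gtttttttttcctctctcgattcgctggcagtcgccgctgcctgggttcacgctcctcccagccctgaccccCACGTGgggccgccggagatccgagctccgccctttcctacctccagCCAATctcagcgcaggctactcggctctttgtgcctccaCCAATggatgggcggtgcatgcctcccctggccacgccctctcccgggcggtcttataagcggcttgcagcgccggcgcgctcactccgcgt
Gadd45g: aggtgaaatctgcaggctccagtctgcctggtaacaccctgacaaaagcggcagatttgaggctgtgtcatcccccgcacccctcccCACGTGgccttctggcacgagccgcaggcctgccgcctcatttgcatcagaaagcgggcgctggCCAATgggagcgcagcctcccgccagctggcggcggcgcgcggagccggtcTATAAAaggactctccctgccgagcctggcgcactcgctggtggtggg

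An E-box was found in the promoter of Gadd45b, 178 bases before the start, of Gadd45g, 163 bases before it, and of Max, 33 bases before it. That is 3 of the 8 members with a promoter in the table, of which all 300 bases, from 250 before to 50 after the start, were searched on both strands. Among all 33469 promoters of this length 6.42% held 1. The CCAAT box was found in 6 of the 8 members, against 37.5% of all promoters, with 3 matches in Mxd1, 2 in Gadd45b and 1 each in Gadd45a and Gadd45g. These motifs did not overlap each other in the 4 promoters shown. A TATA box was found only in Gadd45g among the 8, against 14.2% of all promoters, and no CRE (TGACGTCA) and no AP-1 site (TGANTCA) was found in the 8, against 1.83% and 7.33% of all promoters. A match is a string of letters and says nothing of binding.

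Cdkn1a, the gene of p21, gave different answers from its 2 probes. The first 30 bases of each 60-base probe are shown because the reading of Cdkn1a depends on which is used. Both lie on the plus strand of rn4, the first at chr20:7385536-7385595, base 641 of the transcript, and the second at chr20:7386596-7386655, base 1689 of the same transcript.
Cdkn1a base 641: aatttaaacttctcctgtatatactctgcc
Cdkn1a base 1689: ccctgtttctgtaacaccctgagctggact

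The probe at base 641, which is the brighter one over the 6 arrays and stands for the gene, gave 3.24, 2.66 and 3.04 in AACO hearts and 3.13, 2.69 and 3.04 in control hearts. The groups overlapped throughout, with a log2 fold change of 0.03 ± 0.19 (SE). The probe at base 1689 gave 1.83, 1.68 and 2.92 in AACO hearts, against 3.49, 3.94 and 3.55 in control hearts. Here every AACO heart lay below every control heart, with a log2 fold change of -1.52 ± 0.34 (SE), although AACO replicate 3 was more than 1 log2 unit above the other two AACO hearts. On the unscaled signal this probe overlapped, at 6002, 6943 and 16145 on AACO arrays and 19793, 18581 and 15714 on control arrays.

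The ratio of the 2 Cdkn1a probes within an array does not depend on scaling between arrays. The log2 ratio of the probe at base 1689 over the probe at base 641 was -1.41, -0.97 and -0.12 on AACO arrays, against 0.37, 1.25 and 0.51 on control arrays. The groups were apart, with means of -0.84 ± 0.66 on AACO arrays and 0.71 ± 0.47 on control arrays (SD, n = 3 each), a difference of -1.55. The 2 probes therefore changed unequally, and the ratio does not show which of them changed. The probe at base 1689 is printed on 1 spot per array and the one at base 641 on 2, so the probe at base 1689 has no repeat spot to check it. Leaving out AACO replicate 1 or AACO replicate 2 makes the probe at base 1689 the brighter one and the value for the gene then becomes -1.36 or -1.29.

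Mdm2, the ubiquitin ligase that limits p53, is also measured by 2 probes, and neither separated the groups. The probe at base 2609 of the transcript, at chr7:56996880-56996939 on the minus strand, gave 0.11, 0.24 and 0.22 in AACO hearts and 0.22, 0.10 and 0.07 in control hearts. The log2 fold change was 0.06 ± 0.10 (SE), the smallest standard error among the 9 genes. The probe at base 570 had a log2 fold change of 0.01 ± 0.12 (SE). The log2 ratio between the 2 Mdm2 probes was -3.60 ± 0.10 on AACO arrays and -3.54 ± 0.13 on control arrays (SD, n = 3 each).

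**Figure D2:**
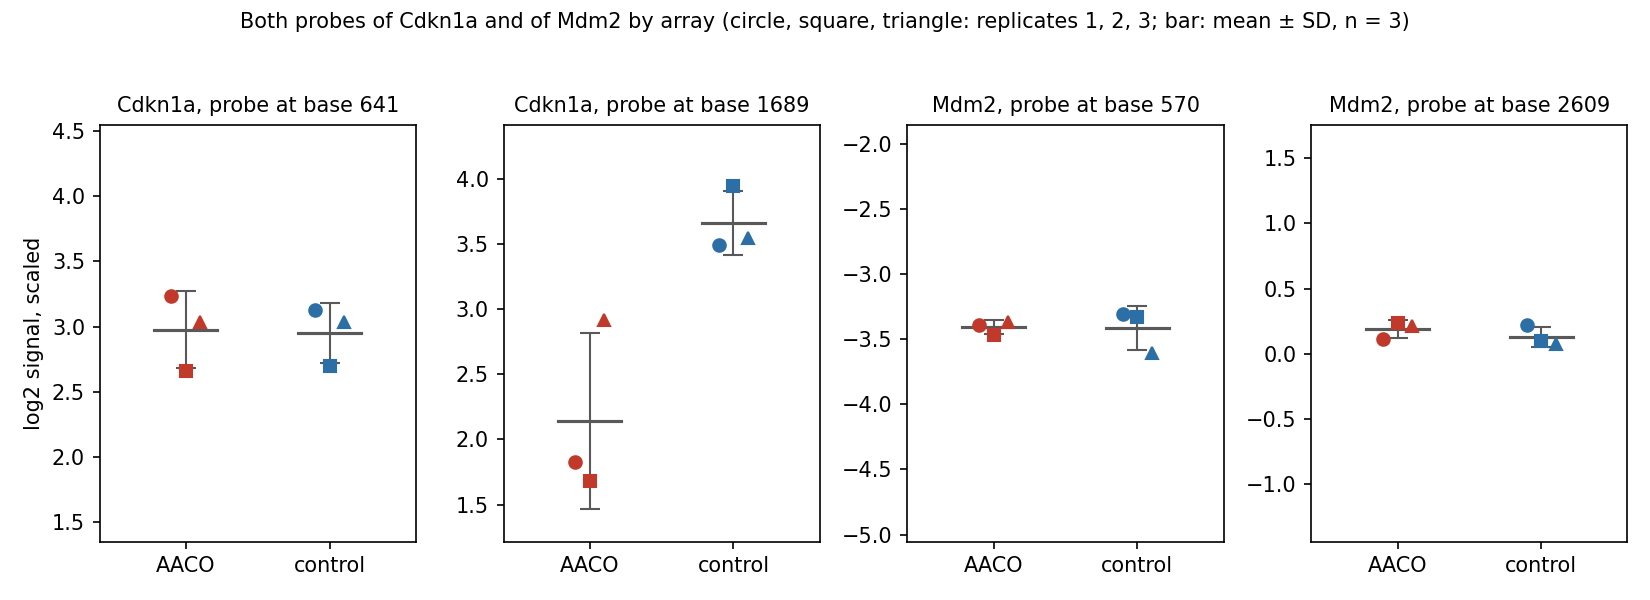
Scaled log2 signal (vertical axis, log2 units over the 75th percentile of the array) of both probes of Cdkn1a and of Mdm2 in AACO and control hearts. Points are arrays and bars are the mean ± SD with n = 3 per group. The groups are apart only for the Cdkn1a probe at base 1689, where the AACO hearts lie between 1.68 and 2.92 and the control hearts between 3.49 and 3.94.

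Ccng1 encodes cyclin G1, a p53 target that helps to activate MDM2. Its probe on chromosome 10 lies between 25778638 and 25778912 on the minus strand, an interval of 275 bases in the file for a 60-base probe. The scaled log2 signal was 4.0, 4.08 and 4.28 in AACO hearts and 3.71, 4.22 and 4.09 in control hearts. The groups overlapped, with a log2 fold change of 0.11 ± 0.16 (SE). On the unscaled signal AACO lay above control without overlap, at 27018 to 41566 on AACO arrays and 22493 to 23069 on control arrays, with a log2 difference of 0.60. The median of all genes was shifted by 0.52 on that unscaled scale, against 0.04 after scaling.

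A match to the p53 half-site, a palindromic pattern of 10 bases, was found in 3 of the 8 promoters searched, against 7.98% of all promoters. The matched bases on GRCr8 are given because these 3 genes are the members textbooks list as direct p53 targets beside Mdm2, whose promoter window held no match. They begin 48 bases before the start in Gadd45a, 201 in Cdkn1a and 232 in Ccng1. Each distance is counted from the start in the 1 promoter window used for that gene, and from no other start it may have.
Gadd45a: GGGCTAGCCC
Cdkn1a: GAACATGTCT
Ccng1: GGGCAAGCCT

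**Figure D3:**
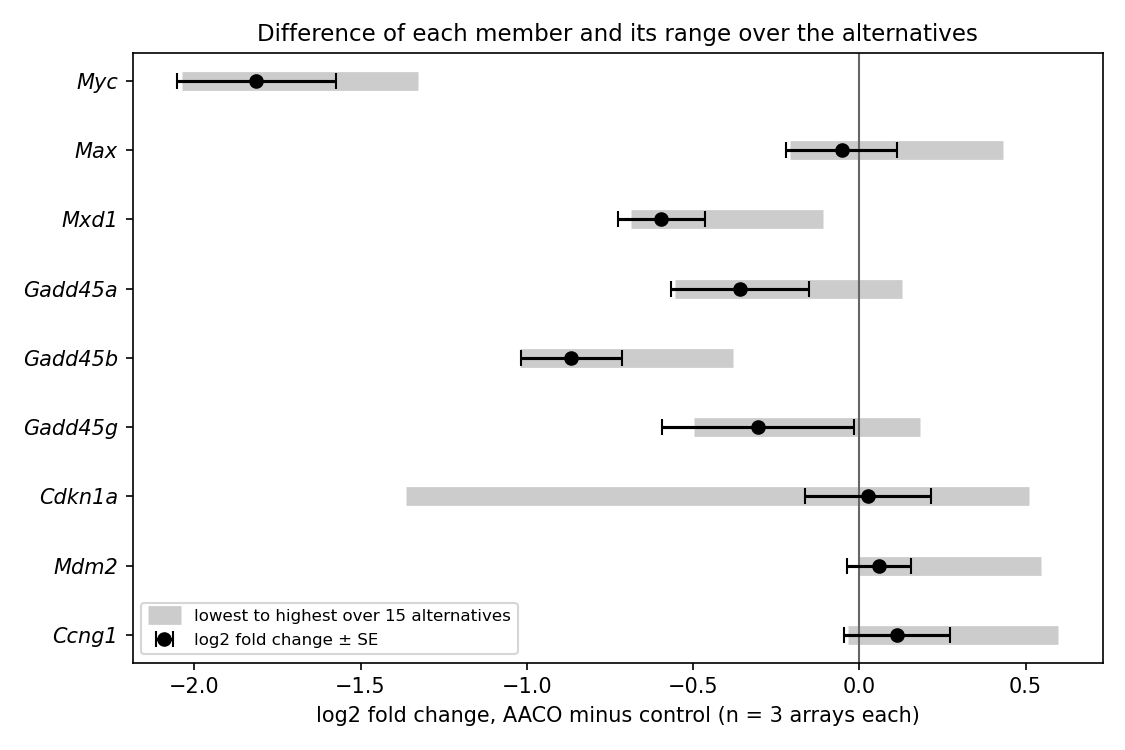
Log2 fold change, AACO minus control (horizontal axis), of the 9 genes as points with their SE, over grey bars that run from the lowest to the highest value among 15 alternative ways of processing. Myc, Mxd1 and Gadd45b stay below 0 throughout, and the bar of Cdkn1a runs between -1.36 and 0.51.

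The genes around the members came from 7 lists of textbook pathway genes. Of 149 genes in all, 123 were tested, 12 were too dim and 14 were not found on the array. Among the 123, 3 rose and 3 fell, which is 4.88% against 11.3% of all genes, and 61 lay above 0 and 62 below it. The 11.3% is also the share to set beside the count of each list below. Their median log2 fold change was -0.002, against 0.04 for all genes. At an unadjusted p under 0.05 there were 21 of the 123. Since 11.3% of all genes passed even after adjustment, the share of all genes under this unadjusted cut is larger than that. It was not counted, so the 21 is not read as many or few. The same goes for the unadjusted counts of single lists, of pathway genes or of markers. Changes of the pathway genes were tested by limma over all 17536 genes with Benjamini-Hochberg adjustment.

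In the MYC and MAX network, which holds the relatives of MYC, MAX and MXD1 and the factors that stabilise or degrade MYC, 0 of 14 tested genes passed, with 3 at an unadjusted p under 0.05 and a median log2 fold change of -0.003. Usp28, a deubiquitinase that protects MYC, had 0.32 ± 0.10 (SE, adjusted p = 0.0837), and Mxd3, a relative of MXD1, had -0.64 ± 0.20 (adjusted p = 0.0840). Mycn had 0.36 ± 0.19 (adjusted p = 0.262), and Mnt, another MAX-binding repressor, had 0.34 ± 0.14 (adjusted p = 0.147). Mycn and Mnt were named after their values were seen, to show the relatives of MYC and of MXD1.

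Of the MYC targets, 32 of 33 were tested, 1 rose and 0 fell, with a median of -0.03 and 15 genes above 0 against 17 below. The one that rose was Tfrc, the transferrin receptor that carries iron into cells. Its scaled log2 signal was 0.47, -0.10 and 0.03 in AACO hearts, against -1.72, -1.39 and -1.62 in control hearts. The log2 fold change was 1.71 ± 0.18 (SE), 3.27-fold higher, with an adjusted p of 0.00830, and Tfrc passed under 15 of 15 alternatives. Its direction was opposite to that of Myc. The nucleolar genes Ddx21 and Gnl3 had -0.28 ± 0.10 (adjusted p = 0.109) and -0.39 ± 0.14 (adjusted p = 0.112).

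Of the p53 targets other than the members, 26 of 33 were tested, 0 rose and 3 fell, with a median of -0.03, 13 above 0 and 13 below. That is 11.5% past the threshold, near the 11.3% of all genes in either direction, of which 4.94% were lower. With 3 genes the shared direction is not read. Gdf15, a secreted stress hormone that is also induced by p53-independent stress, was the largest. It gave -4.69, -4.96 and -4.01 in AACO hearts, against -2.44, -1.70 and -2.35 in control hearts. The log2 fold change was -2.39 ± 0.30 (SE), 5.25-fold lower, with an adjusted p of 0.0112. Tp53inp1, which promotes p53-dependent cell death, had -0.69 ± 0.15 (adjusted p = 0.0384), and Dram1, an autophagy regulator, had -0.66 ± 0.13 (adjusted p = 0.0306). Of the arrest and death genes that did not pass, Perp had 0.64 ± 0.21 (adjusted p = 0.101) and Bax had -0.32 ± 0.11 (adjusted p = 0.116). Without AACO replicate 1 or without AACO replicate 2, each of the 3 calls was lost, with adjusted p between 0.0502 and 0.104, and the Tp53inp1 and Dram1 calls were lost without scaling too. With 1 control array left out, the Tp53inp1 call was lost each time, as it was with no filter on dim probes, and the Dram1 call was lost without control replicate 2 or control replicate 3, and Dram1 also lost its call without AACO replicate 3.

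Among the regulators of p53, 17 of 22 were tested, 1 rose and 0 fell, with a median log2 fold change of 0.16. Tp63, a relative of p53, gave 3.27, 3.19 and 3.15 in AACO hearts, against 2.28, 2.59 and 2.42 in control hearts. It rose by 0.77 ± 0.11 on the log2 scale (SE, adjusted p = 0.0145). Its call was lost without AACO replicate 1, AACO replicate 2 or control replicate 3. Chek1, a DNA damage checkpoint kinase, was well above background on 3 of 3 AACO arrays and 0 of 3 control arrays, so it entered the fit through the AACO arrays alone. Its log2 difference was 1.37 ± 0.43 (adjusted p = 0.0923) but turned to -0.15 after normexp background correction, so no direction is given. Hipk2, a kinase that activates p53, had -0.44 ± 0.16 (adjusted p = 0.127).

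Of the GADD45 partners, 15 of 18 were tested, 1 rose and 0 fell, with a median log2 fold change of -0.04. Map2k6, a kinase that activates p38, gave -2.06, -2.09 and -2.45 in AACO hearts, against -3.72, -3.51 and -3.31 in control hearts. The groups were apart, and the log2 fold change was 1.32 ± 0.16 (SE), 2.49-fold higher, with an adjusted p of 0.00987 that rose to 0.0520 without AACO replicate 2. Map2k7, a kinase that activates JNK whose probe was well above background on 2 of 3 control arrays, had 0.62 ± 0.20 (adjusted p = 0.0908), which turned to -0.08 after normexp, and Mapk12, a p38 isoform, had 0.29 ± 0.11 (adjusted p = 0.134).

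Of the p21 partners, which are cyclins, cyclin-dependent kinases, their other inhibitors and the retinoblastoma family, 0 of 17 tested passed, with 2 at an unadjusted p under 0.05 and a median log2 fold change of -0.01. Cdk2, the main kinase that p21 inhibits, had 0.70 ± 0.20 (SE, adjusted p = 0.0689). Ccng2, the relative of Ccng1, had -0.43 ± 0.14 (adjusted p = 0.100), but 0.23 from its other probe. Among 4 further genes named for growth arrest or DNA damage, 0 passed, 0 had an unadjusted p under 0.05, and the median was -0.24. They include Ddit4l, an inhibitor of mTOR signalling, at 0.42 ± 0.22 (adjusted p = 0.250), and Ppp1r15a, which is also called GADD34, at -0.37 ± 0.21 (adjusted p = 0.279). Among the genes named here that did not pass, Ddx21, Gnl3, Bax, Hipk2, Ccng2 and Ppp1r15a lay above 0 without scaling, between 0.05 and 0.21.

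**Figure D4:**
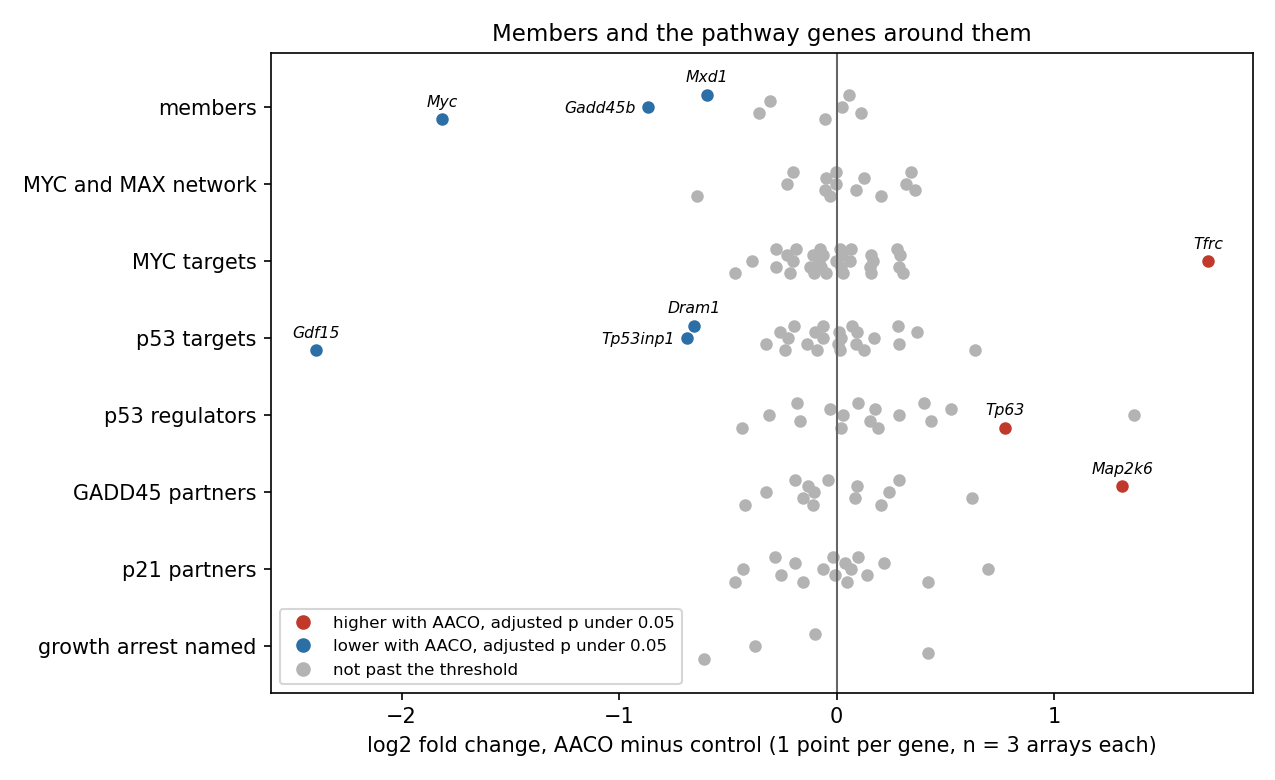
Log2 fold change, AACO minus control (horizontal axis), of the 9 members and of the tested genes of the 7 pathway lists (vertical axis), 1 point per gene from 3 arrays per group. Genes past the threshold are coloured and named, with 3 higher and 3 lower over the lists, and vertical shifts within a row only separate the points. The grey point at 1.37 is Chek1, which was dim in all control hearts.

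The genes most like each member were found by the root mean square (RMS) difference of values over the 6 arrays, each gene centred on its own mean. The measure includes the difference between the groups, so it finds genes with a like group difference as well as a like order within groups. For Myc, whose centred values had an SD of 1.04 log2 units, the nearest were Add2, the gene of beta-adducin, at an RMS difference of 0.22, Tmem140 at 0.24 and Adgre1 at 0.24. Adgre1 encodes a surface receptor of macrophages and is on the macrophage list. Adgre1 gave -4.22, -4.08 and -4.28 in AACO hearts and -3.01, -2.55 and -2.52 in control hearts. Add2, the nearest, gave -5.84, -5.51 and -5.51 in AACO hearts and -4.46, -3.81 and -4.32 in control hearts. On the macrophage list 9 of 12 markers fell. The other 3 were Lyz2 (-0.81 ± 0.24, SE), Csf1r (0.04 ± 0.18) and Aif1 (-0.07 ± 0.19). The other probes of Csf1r and Aif1 had -1.07 and -0.32. The part of macrophages in the value of Myc was not tested.

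For Gadd45b, with an SD of 0.51, the nearest were the growth factor gene Tgfa at an RMS difference of 0.06, Lefty2, whose protein antagonises Nodal, at 0.08 and the olfactory receptor gene Or13a25 at 0.08. For Mxd1, with an SD of 0.36, they were Aopep at 0.04, Gramd2b at 0.05 and Jakmip3 at 0.05. For the other 6 members the nearest gene was Casp8ap2 for Max, Nf2 for Gadd45a, H2ac1 for Gadd45g, Spata33 for Cdkn1a, Vrk3 for Mdm2 and Got1 for Ccng1, at RMS differences of 0.02 for Vrk3 to 0.12 for H2ac1. Where a member hardly varied, as Mdm2 with an SD of 0.07, a small RMS difference says only that both genes hardly varied.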

How the data were processed

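Agilent Feature Extraction 10.7.1.1 read the 6 one-colour Cy3 arrays, per the submitters' processing notes. As intensity, the processed signal of the deposited files was used, which per the file headers is corrected for background and not scaled between arrays. The authors also deposited a series matrix of log2 values of the same arrays, with its normalization not stated, which was used as an alternative. Control spots and outlier-marked spots were left out, spots of a probe were averaged on the log2 scale, and the 75th percentile of each array's non-control spots was subtracted. Probes well above background on at least 3 arrays were kept, and the probe brightest on average stood for a gene. The 2 groups were fitted with limma 3.58.1 under R 4.3.3 (lmFit, eBayes, two-sided, Benjamini-Hochberg over 17536 genes), which was tested on simulated data. The simulation changed 200 of 17536 genes, against 1975 that passed in the data, and gave 7 false calls. There, 58.1% of genes with a simulated log2 change of 1 were recovered, and 81.1% of those with a change of 2. These shares need not carry over to the data. A gene that did not pass can thus still have changed. With 3 arrays per group, the number of arrays limits the precision. Promoters and symbols are from RefSeq (GRCr8), 1 promoter window was used per named gene, and 8 of 9 members had a promoter. The p53 half-site was searched by its pattern, and other motifs by the letters given.

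The members and lists were chosen with earlier results of these data known. Genes named are the members, up to 6 genes per list past the threshold and the 2 next by adjusted p, and the 3 nearest genes of each member, with exceptions stated. Alternatives covered background correction, scaling, dim probes, probe choice and leaving out each array.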

Additional observations from a re-analysis of the deposited data

How the results depend on the processing

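Over 15 alternatives, the log2 fold change of Myc ranged between -2.04 and -1.33, that of Gadd45b between -1.02 and -0.38 and that of Mxd1 between -0.69 and -0.11. As the members were selected on this contrast, these ranges and the following count are a description. The count of members past the threshold as lower was 3, but 1 without scaling between arrays (Myc) and 0 to 3 with 1 array left out, at 0 without AACO replicate 1 or AACO replicate 2 and 1 without control replicate 3. The count of members higher was 0 throughout. Without scaling, 5493 genes passed as higher and 232 as lower, against 1108 and 867, and the pathway genes that passed were 27 higher and 1 lower, against 3 and 3. Genes lower numbered 1529 after normexp background correction and 1401 with no filter on dim probes. With 1 array left out, genes higher ranged between 108 and 1227, genes lower between 149 and 939, pathway genes higher between 1 and 5 and pathway genes lower between 0 and 4. The share of higher among all genes that passed was 56.1%, against 33.6% after normexp, 35.6% with no filter, 45.7% with the percentile taken over probes (an alternative chosen after seeing the data) and 95.9% without scaling. With 1 array left out it was 44.1% without AACO replicate 1 and 42.0% without AACO replicate 2. The cause was not tested. Cdkn1a changed sign under 10 alternatives, and averaging its probes gave -0.75. The slide as a block was not run, because each slide holds 1 group. No paired analysis was possible because no number in the titles occurs in both groups, and the replicate numbers used here only name the arrays of a group in their order of deposit. The series matrix columns correlated with the scanner values at 0.998 or more, had a common median of 6.7708673 and ran in the same direction, but their normalization stays unknown.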

Other observations

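Promoters of the MYC target list held an E-box in 11 of 30 genes with a promoter in the table (36.7%), against 6.42% of all promoters. Of the 10 tested among these 11, 0 passed the threshold in limma's fit, against 11.3% of all genes, and with so few genes that difference is not read. Tfrc, the target that rose, was not among these 11. Promoters of the p53 target list held a p53 half-site in 5 of 25 genes (20.0%), against 7.98% of all promoters, and of the 4 tested among them 0 passed, which is too few to set against the 11.3%.

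Of the 11 member probes tested, the AACO array nearest to the control mean was replicate 3 for 5 probes, and replicate 1 or replicate 2 for 3 probes each.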
